A study of Mus musculus with 22 samples.

Results

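Footprints of the RNA-binding protein hnRNP A1 were examined in 8 genes of the mouse spinal cord. These were *App* and its paralogs *Aplp1* and *Aplp2*, which form the amyloid precursor family, and *Apoe*, *Clu*, *Prnp*, *Psap* and *Cst3*, which encode secreted or cell-surface proteins that are studied beside it. The genes were taken by name, 8 of 55450 annotated genes, and every footprint that overlapped the annotated span of one of them by at least 1 nt was kept, which gave 254 of the 136207 footprints of the series. The footprints came from CLIPseq, in which UV light crosslinks proteins to RNA, an antibody recovers 1 protein with the RNA attached to it, and that RNA is sequenced. The mice were C57BL/6N females in 3 groups. The 3 naïve mice, numbered 1, 2 and 3, received no immunization, whereas 7 mice had experimental autoimmune encephalomyelitis (EAE), induced by immunization with complete Freund's adjuvant that held the myelin peptide MOG(35-55), with 100 ng of pertussis toxin on days 0 and 1. The treatment protocol puts immunization at 12 weeks of age and the design text of the series at 8 weeks, and the cords were taken 15 days after clinical onset. EAE mice 3, 4 and 7 had mild disease, with clinical scores of 1.5, 1.5 and 1.0, and EAE mice 1, 2, 5 and 6 had severe disease, with scores of 2.5, 3.0, 2.5 and 3.0. Each mouse gave 1 list of footprints. Input and IgG libraries were not analysed here. The labels name antibody clone 9H10 and the methods of the study name clone 4B10.

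hnRNP A1 is an abundant, mostly nuclear protein that binds pre-mRNA and mRNA and takes part in splice site choice, export, stability and translation, and the short motif UAG is its best known binding sequence. The amyloid precursor protein is a type I membrane protein of neurons and other cells that is cut by secretases, and one product of those cuts is the amyloid-beta peptide. Its paralogs share the large extracellular region and the short cytoplasmic tail, but not the amyloid-beta segment. *App* pre-mRNA is spliced in a cell type-dependent way, with exons 7 and 8 left out of the main neuronal form.

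A footprint here is a stretch of the genome covered by contigs that were assembled from the reads of 1 mouse and that was found neither in the matched input nor in the pooled IgG data. The lists hold positions without read counts, so how deeply each footprint was sequenced is unknown, and each gene was described by its covered nt, the number of genome positions under footprints in a mouse. A value of 0 says that no footprint was retained, which does not show that binding was absent. The lists differed widely in their number of footprints. The naïve mice had 17119 to 17494 footprints and the mild EAE mice 9751 to 24433, whereas EAE mice 1, 2, 5 and 6 (severe) had 2670, 209, 31870 and 673, so that EAE mice 2 and 6 hold almost no footprints of any gene. Of the genes fixed as markers of cord cells, 6 of 6 oligodendrocyte, 6 of 6 astrocyte and 7 of 8 neuronal genes were footprinted in at least 1 mouse (*Chat* at 0). Not each of them was footprinted in every group, and *Gfap* was at 0 in EAE mice 3, 4 and 7 (mild). Microglia and macrophage markers had 172 to 392 covered nt per naïve mouse, 1148 to 2964 per mild EAE mouse and 434, 0, 4195 and 210 in EAE mice 1, 2, 5 and 6 (severe), with 8 of 9 genes footprinted (*Aif1* at 0). Of the 8 microglial genes tested, *Cx3cr1* had a lower EAE than naïve mean (-128 nt, exact permutation p = 0.35) and the other 7 a higher one, none with a p under 0.05. The neuronal markers had 6778, 3723 and 7337 covered nt in naïve mice 1, 2 and 3, 3457, 2882 and 4662 in EAE mice 3, 4 and 7 (mild), and 366, 0, 11586 and 0 in EAE mice 1, 2, 5 and 6 (severe). Of the 7 tested, *Rbfox3* (exact permutation p = 0.0167) and *Syt1* (0.0417) were lower in EAE before adjustment (adjusted 0.675 for each). Over all genes tested, 4.51% were lower at that threshold. *Snap25*, *Map2* and *Nefl* also had a lower EAE mean, whereas *Nefm* (9.24 nt) and *Nefh* (159 nt) had a higher one. None of these had an exact p under 0.05. All 5 T cell markers were at 0 in every mouse. The part of cell composition in the values below was not tested, and in whole cords fewer cells of a type and less RNA per cell cannot be told apart.

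The 3 amyloid precursor family genes carried most of the covered nt, and *Apoe* and *Cst3* the least. Summed over the 10 mice, *App* had 8438 covered nt and ranked 240 of the 9195 genes that were footprinted in at least 2 mice, *Aplp2* had 5915 (rank 434) and *Aplp1* 5395 (rank 493). *Clu* followed at rank 1160, *Psap* at 1341, *Prnp* at 1692, *Cst3* at 5349 and *Apoe* at 8267. *Aplp1* was footprinted in 9 mice, a number that 1.39% of the genes tested reached. *App*, *Aplp2*, *Clu* and *Psap* were footprinted in 8 mice, *Prnp* in 7, *Cst3* in 3 and *Apoe* in 2. Because genes differ in length, levels were compared as covered coding nt per 1000 nt of annotated coding sequence, averaged over the 10 mice. On this scale *Prnp* (243 ± 216, SD, n = 10), *Aplp1* (239 ± 148), *App* (216 ± 203) and *Aplp2* (201 ± 165) came first. *Clu* (156 ± 164), *Psap* (110.5 ± 117), *Cst3* (38.6 ± 81.3) and *Apoe* (29.7 ± 63.0) came after them. Of the 7 pairs of neighbours in this order, *Psap* and *Cst3* alone differed by more than the SD of their difference over mice (71.9 ± 66.1, with *Psap* higher in 7 mice and lower in 0), and the other pairs did not differ beyond that spread.

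The covered nt of all 8 genes together were 3294, 2408 and 5122 in naïve mice 1, 2 and 3. In EAE mice 3, 4 and 7 (mild) they were 4646, 2066 and 3355, and EAE mice 1, 2, 5 and 6 (severe) had 834, 150, 6334 and 297. The naïve and mild groups overlapped, and the severe group held both the highest mouse of the series and its 3 lowest. The means were 3608 ± 1384 (SD, n = 3) in naïve, 3356 ± 1290 (n = 3) in mild and 1904 ± 2968 (n = 4) in severe EAE mice. Divided by all covered nt of the mouse, the order turned. The 8 genes then took 1666 ± 606 nt per 1000000 covered nt in naïve mice, 1970.0 ± 952 in mild and 3530.4 ± 2005 in severe EAE mice, with 6158 in EAE mouse 2, where the value rests on a single footprint. Per 1000000 mapped unique reads of the library, the totals were again lower in EAE than in naïve mice (by a difference of -521 nt) and lower in severe than in mild EAE mice (-327 nt).

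**Figure D1:**
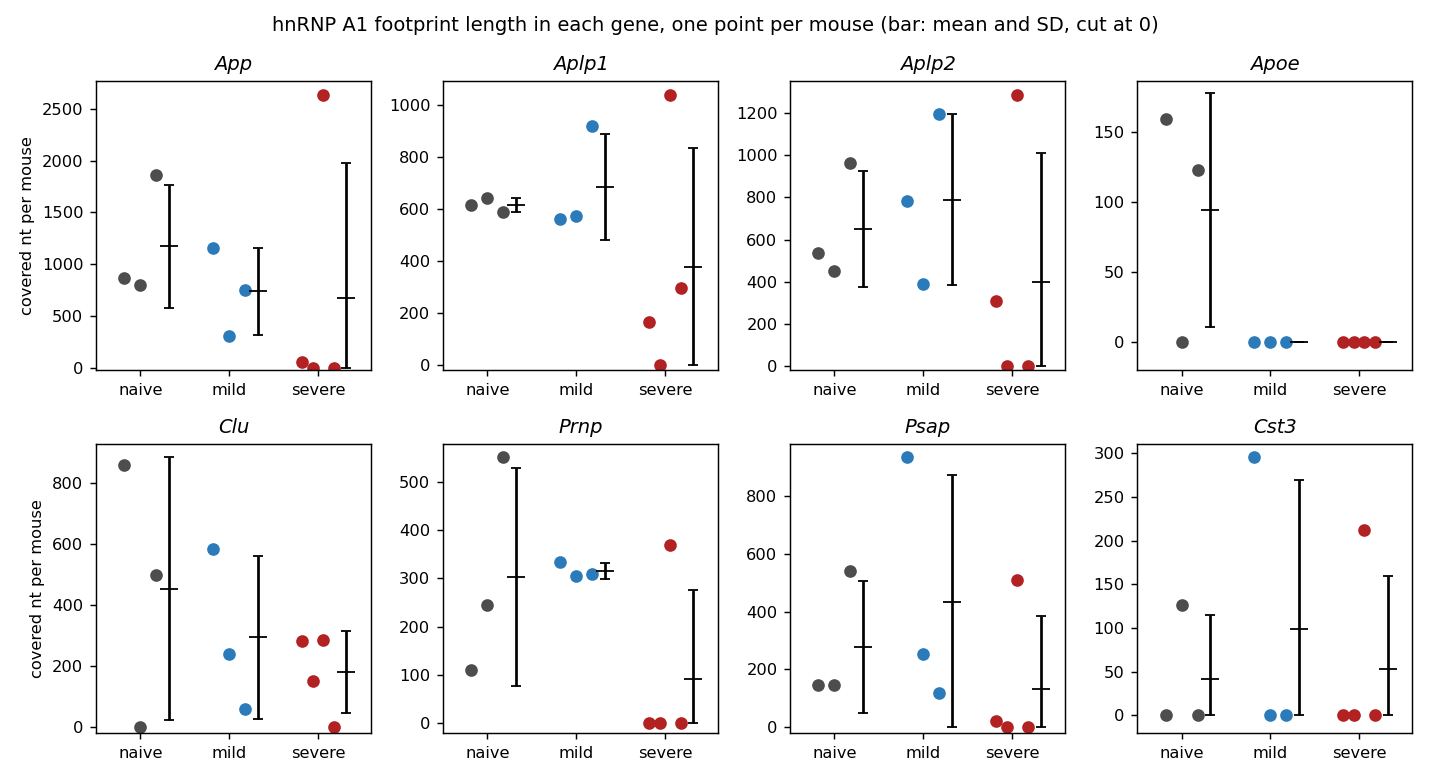
Covered nt (y axis, one scale per gene) of each of the 8 genes in each mouse, with naïve mice in grey, mild EAE mice in blue and severe EAE mice in red, and the bar beside each group giving its mean and SD, cut at 0. In 4 of the genes severe EAE mouse 5 stands far above the other severe EAE mice, and *Apoe* is at 0 in all 7 EAE mice.

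To ask whether EAE or its severity went with a change of footprint length, covered nt were compared between groups for every gene footprinted in at least 2 mice, by a two-sided exact permutation test over mice with Benjamini-Hochberg adjustment over all 9195 genes. With 3 against 7 mice there are 120 splits and no p below 0.00833, and with 4 against 3 mice 35 splits and none below 0.0286. None of the 8 genes had an exact p under 0.05 in either comparison. Over all genes tested, 415 (4.51%) were lower in EAE than in naïve mice at an unadjusted exact p under 0.05 and 1 (0.0109%) was higher. Between severe and mild EAE, 124 genes (1.35%) were lower and 0 (0%) higher in severe EAE. After adjustment 0 genes passed in either comparison by this test, the smallest adjusted exact permutation p being 0.613 and 1. The mean covered nt of 7 of the 8 genes was lower in EAE than in naïve mice, *Cst3* being the exception, but per 1000000 covered nt 3 were lower and 5 higher. The median difference over the 8 genes was -100 nt (EAE minus naïve), beside -20.2 nt over all genes tested, of which 59.7% were lower in EAE. Between severe and mild EAE 7 of the 8 genes were lower in severe EAE and *Apoe* was at 0 in both, whereas per 1000000 covered nt 5 were lower and 2 higher. The median difference there was -169 nt, beside -43.6 nt over all genes tested, of which 69.7% were lower. A gene with more covered nt can differ by more nt, and the sets behind these medians were not matched for covered nt. The medians therefore do not show a larger loss in the 8 genes than in like genes.

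*App* encodes the amyloid precursor protein and lies at chr16:84949685-85173766 (GRCm38, minus strand), a span of 224082 nt that is 94.2% intronic, with 18 exons in the reference transcript App-206. It had 868, 799 and 1858 covered nt in naïve mice 1, 2 and 3, 1154, 311 and 756 in EAE mice 3, 4 and 7 (mild), and 58, 0, 2634 and 0 in EAE mice 1, 2, 5 and 6 (severe). All naïve mice were above 3 of the severe mice, and EAE mouse 5 was above every naïve mouse. The naïve mean was 1175 ± 593 (SD, n = 3) and the EAE mean 702 ± 957 (n = 7), a difference of -473 nt with an exact permutation p of 0.45 (adjusted 1). Severe EAE mice differed from mild by -67.3 nt (exact p = 1). Without EAE mouse 5 the EAE mean was 379.8 nt. Of the 69 *App* footprints, 46 had their midpoint in coding sequence, 15 in an intron, 4 in the 5′ UTR and 4 in the 3′ UTR, and they covered 73.9% of the coding sequence in at least 1 mouse. The longest coding run without a footprint in any mouse was nt 529 to 865 of the coding sequence, 337 nt that hold exon 6 and the end of exon 5. Exons 2, 4, 12 and 13 were footprinted in all 3 naïve mice and in 2 EAE mice each. Exon 13, at chr16:85013627-85013726, had 100, 40 and 100 covered nt in the naïve mice, 24, 0 and 0 in EAE mice 3, 4 and 7 (mild) and 0, 0, 100 and 0 in EAE mice 1, 2, 5 and 6 (severe). All naïve mice were above 6 of the 7 EAE mice, with an unadjusted exact permutation p of 0.0333 and an adjusted p of 0.903 over the 18801 exons tested. Exon 11, at chr16:85024853-85025011, had 94, 159, 13 and 159 covered nt in EAE mice 3, 4, 7 and 5 and 0 in the other mice, naïve mice included (exact p = 0.25).

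Exon 7 of *App* encodes the Kunitz protease inhibitor domain and exon 8 the short OX-2 segment, and these are the alternatively spliced exons that the main neuronal form lacks. Exon 7 had 121 and 168 covered nt in naïve mice 2 and 3, 60 in EAE mouse 3, 121 in EAE mouse 7 and 128 in EAE mouse 5, and 0 in the other 5 mice. Exon 8 had 57 nt in naïve mice 2 and 3, 40 in EAE mouse 4 and 44 in EAE mouse 5. Both exons were thus footprinted in naïve and in EAE mice, and the exact permutation p was 0.375 for exon 7 and 0.25 for exon 8. Another feature was a stretch in the first intron, the one intronic stretch of the 8 genes that at least 2 mice shared. It was covered in naïve mouse 3 and EAE mice 4, 7 and 5, which places it in all 3 groups. These *App* sequences, from the GRCm38 genome and read 5′ to 3′ on the gene's strand, are shown because they hold the alternatively spliced exon and that intronic stretch. Here and below capitals mark TAG, the DNA letters of UAG, and AGGT, the letters of AGGU, both searched on the gene's strand.
App exon 7, chr16:85043576-85043743: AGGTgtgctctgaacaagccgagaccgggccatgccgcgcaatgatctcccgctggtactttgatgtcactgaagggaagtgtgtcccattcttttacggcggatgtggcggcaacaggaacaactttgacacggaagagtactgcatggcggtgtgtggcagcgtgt
App intron 1, chr16:85170131-85170273: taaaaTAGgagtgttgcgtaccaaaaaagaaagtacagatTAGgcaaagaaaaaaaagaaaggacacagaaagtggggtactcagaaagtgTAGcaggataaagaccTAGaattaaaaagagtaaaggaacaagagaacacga
Exon 7 held 0 UAG and 1 AGGU, and the intronic stretch held 4 UAG and 0 AGGU and was 76.2% purine. Shares for comparison were taken over all footprints within 10% of the same length that lay in a single gene. Of these, 74.0% held a UAG at the length of exon 7 and 70.6% at that of the intronic stretch. Here and below, such shares mix all annotation classes and are not matched to coding or intronic stretches. A match is a description of the letters and does not locate a binding site.

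*Aplp1* encodes a paralog found mainly in neurons and lies at chr7:30434982-30445535 (minus strand), with 17 exons in Aplp1-201. Its covered nt were the most even of the family among naïve mice, with 614, 642 and 587 in mice 1, 2 and 3. EAE mice 3, 4 and 7 (mild) had 561, 571 and 919, and EAE mice 1, 2, 5 and 6 (severe) had 165, 0, 1039 and 297. The naïve values lay within the range of both EAE groups. The mean was 614 ± 27.5 (SD, n = 3) in naïve and 507 ± 383 (n = 7) in EAE mice, a difference of -107 nt (exact permutation p = 0.633, adjusted 1). The severe minus mild difference was -308 nt (exact p = 0.314). Of its 51 footprints, 48 had a coding midpoint and 3 a midpoint in the 3′ UTR, and 77.9% of the coding sequence was covered in at least 1 mouse. The longest uncovered coding run was nt 672 to 1068, 397 nt that hold exons 6, 7 and 8.

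Exon 2 of *Aplp1* was the most widely covered exon of the gene. It had 144 covered nt in naïve mouse 2, 133, 144 and 144 in EAE mice 3, 4 and 7 (mild), and 51, 0, 144 and 98 in EAE mice 1, 2, 5 and 6 (severe), whereas naïve mice 1 and 3 had 0. The EAE mean was 54 nt higher, with an exact permutation p of 0.35. Exon 4, at chr7:30442798-30442910, was ordered the other way, with 103, 108 and 113 nt in the 3 naïve mice, 61 in EAE mouse 4, 109 in EAE mouse 6 and 0 in the other 5 EAE mice. Its unadjusted exact permutation p was 0.025 and its adjusted p over all exons 0.903. Exon 5, at chr7:30442480-30442613, had 52, 134 and 134 nt in EAE mice 3, 4 and 7 (mild) and 0, 0, 0 and 23 in EAE mice 1, 2, 5 and 6 (severe) (unadjusted exact p = 0.0286, adjusted 0.875). The mild and severe groups did not overlap there, and naïve mice 1, 2 and 3 had 134, 0 and 0. The sequence of exon 2 is shown as the part of *Aplp1* covered in the most mice, 7 of 10.
Aplp1 exon 2, chr7:30444318-30444461: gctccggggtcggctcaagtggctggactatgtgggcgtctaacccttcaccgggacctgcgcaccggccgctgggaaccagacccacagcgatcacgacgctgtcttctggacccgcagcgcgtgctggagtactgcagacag
It held neither UAG nor AGGU, which 70.9% and 41.4% of footprints of like length held, and it was 66.0% G or C.

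*Aplp2* encodes the broadly expressed paralog and lies at chr9:31149557-31211815 (minus strand), with 17 exons in Aplp2-201. It had 538, 450 and 962 covered nt in naïve mice 1, 2 and 3, 783, 388 and 1197 in EAE mice 3, 4 and 7 (mild), and 309, 0, 1288 and 0 in EAE mice 1, 2, 5 and 6 (severe). The naïve and mild values overlapped, and 3 of the severe mice were below them all. The naïve mean was 650 ± 274 (SD, n = 3) and the EAE mean 566 ± 533 (n = 7), a difference of -83.6 nt (exact permutation p = 0.817, adjusted 1), and the severe minus mild difference was -390.1 nt (exact p = 0.371). Of the 64 footprints, 57 had a coding midpoint and 7 a midpoint in the 3′ UTR. The longest uncovered coding run, nt 714 to 1153, was 440 nt long. Exon 16, at chr9:31151837-31151992, had 83, 94 and 156 nt in EAE mice 3, 4 and 7 (mild), 46, 0, 0 and 0 in EAE mice 1, 2, 5 and 6 (severe) and 0, 0 and 88 in naïve mice 1, 2 and 3. The mild and severe values did not overlap (unadjusted exact permutation p = 0.0286, adjusted 0.875). An alternative exon of 36 nt at chr9:31156190-31156225, annotated as coding but absent from Aplp2-201, had 36 and 26 covered nt in naïve mice 1 and 2 and 33, 20 and 36 in EAE mice 3, 7 and 5. It was thus covered in 5 mice of all 3 groups. Exon 15 is shown because it was covered in 7 of 10 mice (naïve mice 1 and 3 and EAE mice 3, 4, 7, 1 and 5), as many as exon 17, which holds the 3′ UTR.
Aplp2 exon 15, chr9:31152313-31152387: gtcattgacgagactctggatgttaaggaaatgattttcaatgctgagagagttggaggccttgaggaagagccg
It held neither motif, where 32.4% of footprints of like length held UAG and 18.7% AGGU.

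**Figure D2:**
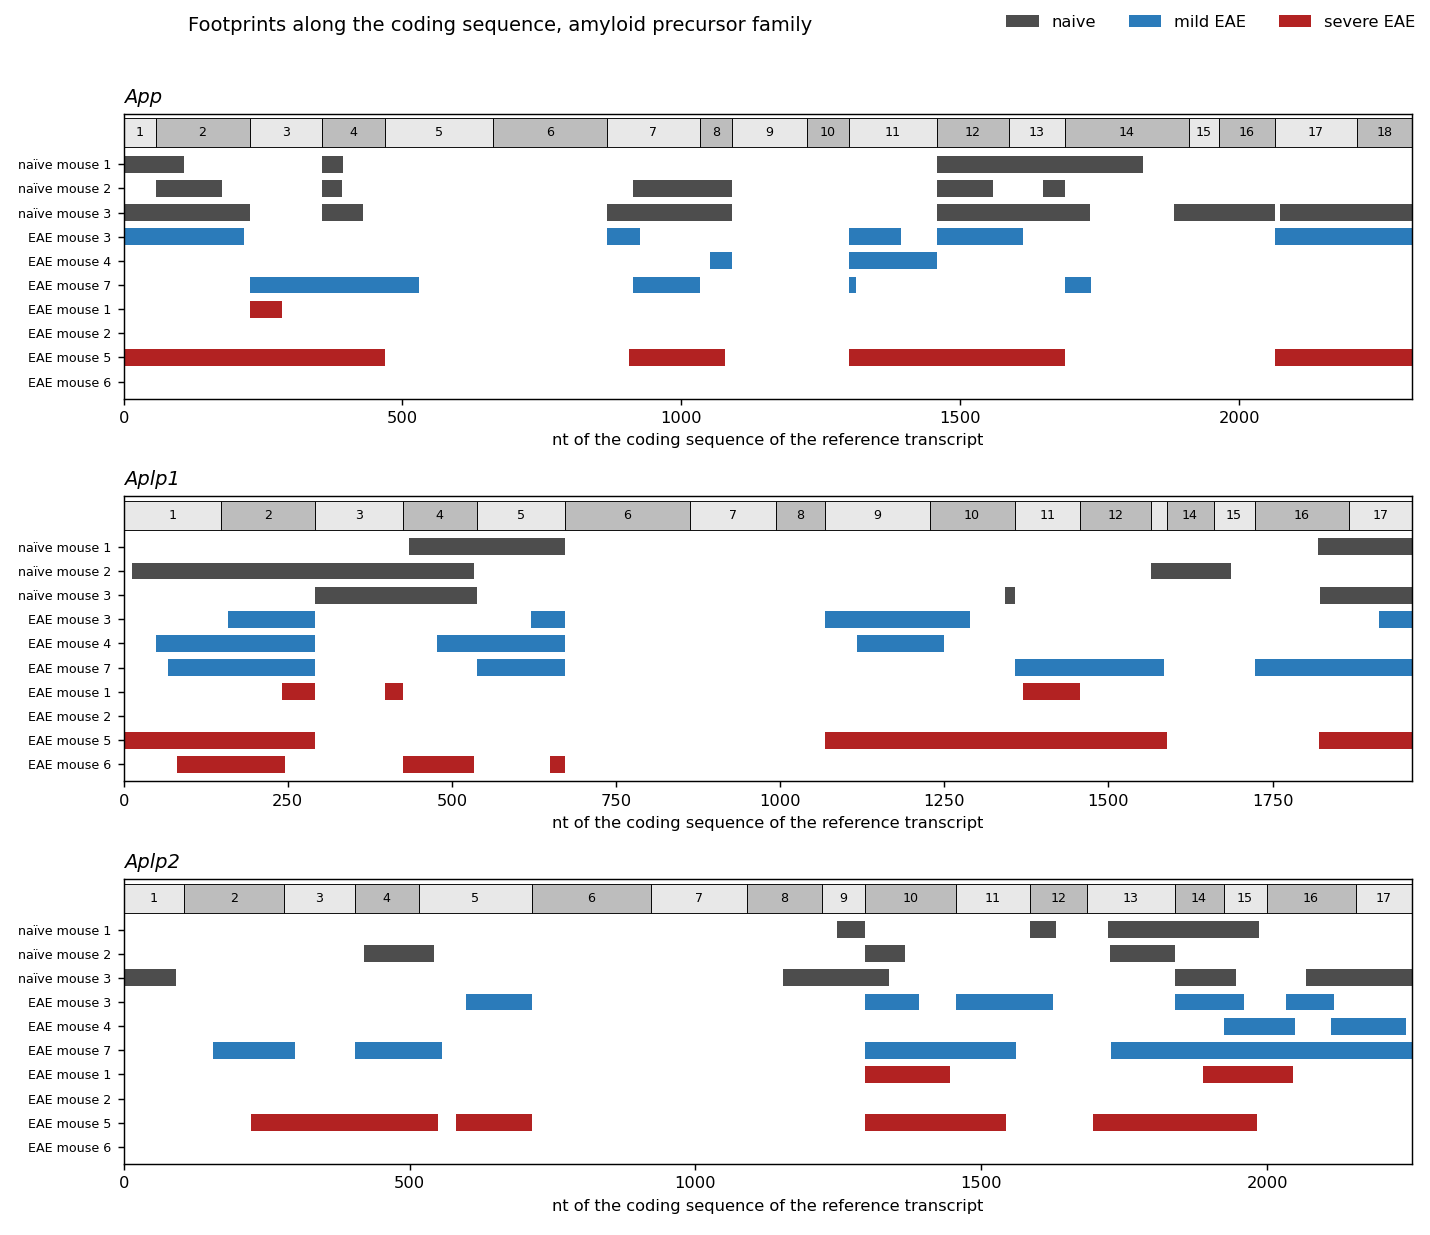
Footprints of each mouse (rows, naïve in grey, mild EAE in blue, severe EAE in red) along the coding sequence of *App*, *Aplp1* and *Aplp2* (x axis, nt of the coding sequence of the reference transcript), with the exons as numbered boxes. A coding run of 337 nt in *App*, 397 nt in *Aplp1* and 440 nt in *Aplp2* is covered in no mouse, and footprints often begin or end at an exon edge.

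Since the 3 family genes are paralogs, their coverage was compared through an alignment of the proteins translated from their coding sequences. Identical nt were then counted over the aligned codons. *App* and *Aplp1* aligned over 622 codons with 53.6% identical nt, *App* and *Aplp2* over 706 codons with 62.7%, and *Aplp1* and *Aplp2* over 632 codons with 54.0%. Exon 6 was without a footprint in all 10 mice in all 3 genes, and it was 68.5% purine in *App*, 57.1% in *Aplp1* and 64.6% in *Aplp2*. *App* exons 9 and 10 and the matching *Aplp1* exons 7 and 8 also had none, whereas the matching *Aplp2* exons 8 and 9 had footprints in 1 and 2 naïve mice. *App* exon 7 was footprinted in 5 mice, and the *Aplp2* exon that matches it, exon 7, in 0 mice. *App* exon 11, covered in 4 EAE mice and no naïve mouse, matches *Aplp1* exon 9, footprinted in 3 EAE mice and 0 naïve mice, and *Aplp2* exon 10, footprinted in 4 EAE and 2 naïve mice. Other matches differed. *App* exon 13, footprinted in 3 naïve and 2 EAE mice, matches *Aplp1* exon 11, footprinted in 0 naïve and 3 EAE mice. *App* exon 3, footprinted in 0 naïve and 3 EAE mice, matches *Aplp1* exon 3, footprinted in 2 naïve mice and 1 EAE mouse. Of the aligned codons covered in at least 2 mice, *App* and *Aplp1* had 321 in common. These were 84.3% of the covered codons of *App*, beside 65.0% of all aligned codons covered in *Aplp1*, and 79.5% of those of *Aplp1*, beside 61.3% of all aligned codons covered in *App*. *App* and *Aplp2* had 248 in common, 56.9% of those of *App* beside 55.4% of all covered in *Aplp2*, and 63.4% of those of *Aplp2* beside 61.8% of all covered in *App*. *Aplp1* and *Aplp2* had 252, 62.5% of those of *Aplp1* beside 60.4% of all covered in *Aplp2*, and 66.0% of those of *Aplp2* beside 63.8% of all covered in *Aplp1*. These shares describe genes sampled in the same mice and carry no test.

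**Figure D3:**
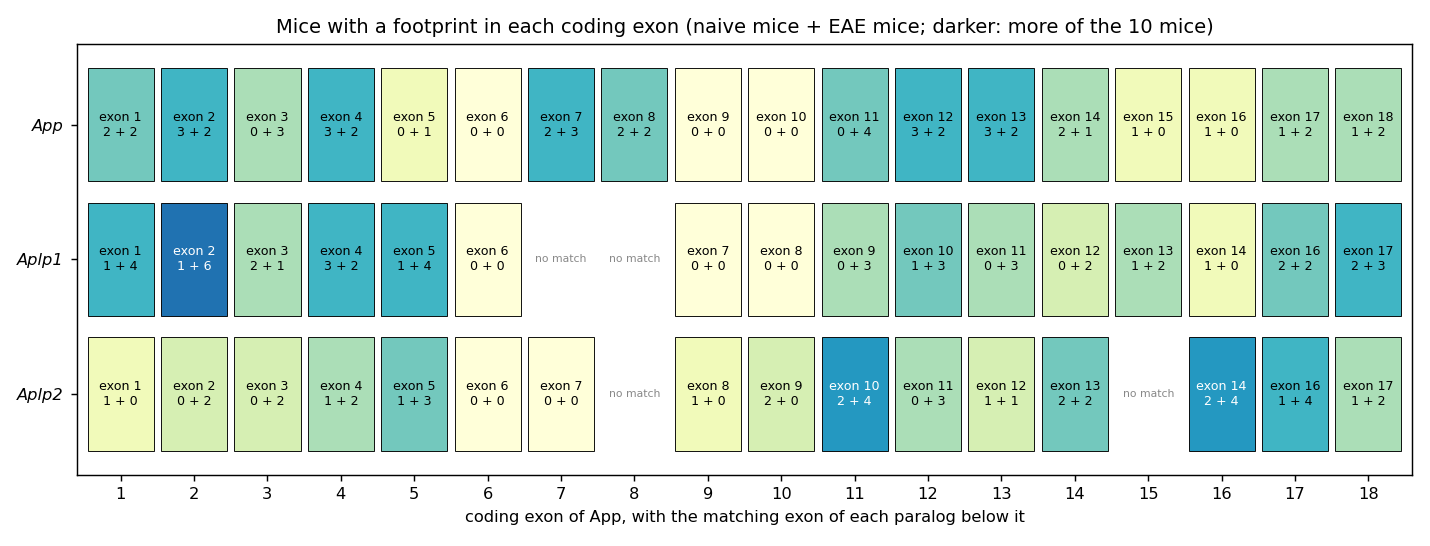
Coding exons of *App* (top row, x axis) with the matching exon of *Aplp1* and *Aplp2* below, each box giving the number of naïve plus EAE mice with a footprint in its coding part and darker boxes more mice. The column of *App* exon 6 reads 0 + 0 in all 3 genes, *Aplp1* exon 2 reads 1 + 6, and exon 15 of *Aplp1* and of *Aplp2*, which was the best match of no *App* exon, is not drawn.

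*Apoe* and *Clu* encode secreted proteins that carry lipid or bind misfolded protein outside cells. *Apoe*, the main apolipoprotein of the central nervous system and a product of astrocytes and microglia, lies at chr7:19696109-19699188 (minus strand). It had 159, 0 and 123 covered nt in naïve mice 1, 2 and 3 and 0 in all 7 EAE mice. EAE mouse 5, with the most footprints of any mouse, was among those at 0. The difference of -94 nt had an exact permutation p of 0.0667 (adjusted 0.675), the one value that this test gives for any gene footprinted in 2 naïve mice and in no other mouse. Both footprints lay at the 3′ end of the coding sequence in exon 4, and the first 770 nt of the 933 coding nt were covered in no mouse. The stretch shared by naïve mice 1 and 3 is shown as the whole shared footprint of the gene.
Apoe exon 4, chr7:19696423-19696536: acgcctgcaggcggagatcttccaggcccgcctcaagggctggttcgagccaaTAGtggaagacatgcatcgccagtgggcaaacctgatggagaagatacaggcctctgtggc
It held 1 UAG and 0 AGGU, where 57.0% of footprints of like length held UAG.

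*Clu* encodes clusterin, an extracellular chaperone, and lies at chr14:65968483-65981547 (plus strand), with 9 exons in Clu-201. It had 859, 0 and 499 covered nt in naïve mice 1, 2 and 3, 584, 239 and 58 in EAE mice 3, 4 and 7 (mild), and 280, 150, 284 and 0 in EAE mice 1, 2, 5 and 6 (severe). The groups overlapped, with a 0 in the naïve as in the severe group. The naïve mean was 453 ± 431 (SD, n = 3) and the EAE mean 228 ± 191 (n = 7), a difference of -225 nt (exact permutation p = 0.292, adjusted 1), and severe minus mild was -115 nt (exact p = 0.486). Footprints covered 88.2% of the coding sequence in at least 1 mouse, the highest share of the 8 genes. Exon 4 had 171 and 106 nt in naïve mice 1 and 3 and 0 in all EAE mice, and exon 3 had 149 nt in each of those naïve mice and 26 in EAE mouse 1 (exact permutation p = 0.0667 for both, again the one value open to exon 4). The 150 nt of EAE mouse 2 were an intronic footprint, the sole footprint of that mouse in the 8 genes. The coding part of exon 2 is shown because it was covered in 6 mice, as many as exon 7.
Clu exon 2, chr14:65971759-65971852: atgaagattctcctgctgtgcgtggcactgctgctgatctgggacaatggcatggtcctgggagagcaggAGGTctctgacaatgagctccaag
It begins at the start codon and held 0 UAG and 1 AGGU, where 39.9% and 23.7% of footprints of like length held these motifs.

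*Prnp* encodes the cellular prion protein, which is anchored to the outer face of the cell membrane, and lies at chr2:131909928-131938429 (plus strand). The annotated gene *Prn* spans it, and footprints of these 2 genes cannot be told apart. *Prnp* had 111, 244 and 551 covered nt in naïve mice 1, 2 and 3, 334, 304 and 308 in EAE mice 3, 4 and 7 (mild), and 0, 0, 369 and 0 in EAE mice 1, 2, 5 and 6 (severe). The mild mice were close to one another, and 1 of 4 severe mice had any footprint. The EAE minus naïve difference was -114 nt (exact permutation p = 0.442, adjusted 1) and the severe minus mild difference -223 nt (exact p = 0.143). Per 1000000 covered nt the severe minus mild difference was -172, with an unadjusted exact permutation p of 0.0286, the smallest that this comparison allows. On that scale 415 of the 9195 genes tested were lower in severe EAE at an unadjusted exact p under 0.05, and 0 were higher. The whole coding sequence lies in exon 3, and 87.8% of it was covered in at least 1 mouse. The stretch covered in at least 4 mice is shown, with the last of the octapeptide repeats of the protein at its start and the sequence after them.
Prnp exon 3, chr2:131936625-131936843: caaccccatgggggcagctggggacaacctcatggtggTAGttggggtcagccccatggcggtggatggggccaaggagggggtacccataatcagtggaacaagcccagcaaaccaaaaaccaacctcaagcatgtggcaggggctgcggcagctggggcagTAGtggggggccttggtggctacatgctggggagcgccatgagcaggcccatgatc
It held 2 UAG and 0 AGGU, where 78.0% of footprints of like length held UAG.

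*Psap* and *Cst3* belong to the lysosomal and protease inhibitor arm of the list. *Psap* encodes prosaposin, the precursor of the saposins that help lysosomal enzymes degrade sphingolipids, and lies at chr10:60277627-60302597 (plus strand), with 15 exons in Psap-205. It had 145, 147 and 542 covered nt in naïve mice 1, 2 and 3, 934, 253 and 117 in EAE mice 3, 4 and 7 (mild), and 22, 0, 508 and 0 in EAE mice 1, 2, 5 and 6 (severe). Naïve and mild values overlapped over most of their range. The EAE minus naïve difference was -16 nt (exact permutation p = 0.925, adjusted 1) and severe minus mild was -302 nt (exact p = 0.314). Some exons were footprinted in naïve mice alone or in EAE mice alone, in each case in part of those mice. Exons 9 and 10, of 132 and 96 nt, were covered over their whole length in EAE mice 3, 4 and 5. They had 0 nt in EAE mice 7, 1, 2 and 6 and in the naïve mice (exact p = 0.475 for each). Exons 12, 13 and 14 were covered in 2 naïve mice each and in no EAE mouse, with 82 and 95 nt in exon 12, 76 and 81 nt in exon 13 and 44 and 34 nt in exon 14, a pattern for which the exact permutation p is 0.0667 whatever the values. Exon 15, which holds the 3′ UTR, had 314, 25 and 117 nt in EAE mice 3, 4 and 7 (mild) and 22, 0, 0 and 0 in EAE mice 1, 2, 5 and 6 (severe) (unadjusted exact p = 0.0286, adjusted 0.875), with 0, 0 and 210 in the naïve mice. Exon 11 lies between these exons, was covered in naïve mice 1 and 2 and EAE mice 3 and 5, and is shown for that reason.
Psap exon 11, chr10:60299779-60300058: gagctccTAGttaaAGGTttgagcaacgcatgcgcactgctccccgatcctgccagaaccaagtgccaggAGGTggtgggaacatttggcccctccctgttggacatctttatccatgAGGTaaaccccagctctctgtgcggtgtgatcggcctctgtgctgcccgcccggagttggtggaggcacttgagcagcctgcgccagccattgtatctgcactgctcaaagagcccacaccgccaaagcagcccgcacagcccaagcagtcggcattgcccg
It held 1 UAG and 3 AGGU, where 83.3% and 63.1% of footprints of like length held these motifs.

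*Cst3* encodes cystatin C, a secreted inhibitor of cysteine proteases, and lies at chr2:148871722-148875692 (minus strand). It had 0, 126 and 0 covered nt in naïve mice 1, 2 and 3, 296, 0 and 0 in EAE mice 3, 4 and 7 (mild), and 0, 0, 212 and 0 in EAE mice 1, 2, 5 and 6 (severe). Thus 1 mouse of each group had a footprint, and the EAE mean was 30.6 nt higher (exact permutation p = 0.825, adjusted 1). All 3 footprints lay in exon 3, the last exon, and the first 339 of 420 coding nt were covered in no mouse. The coding part covered in EAE mice 3 and 5 is shown as the whole covered coding sequence of the gene.
Cst3 exon 3, chr2:148871963-148872043: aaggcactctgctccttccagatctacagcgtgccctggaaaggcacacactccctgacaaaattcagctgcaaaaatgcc
It held neither motif, where 35.2% of footprints of like length held UAG.

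**Figure D4:**
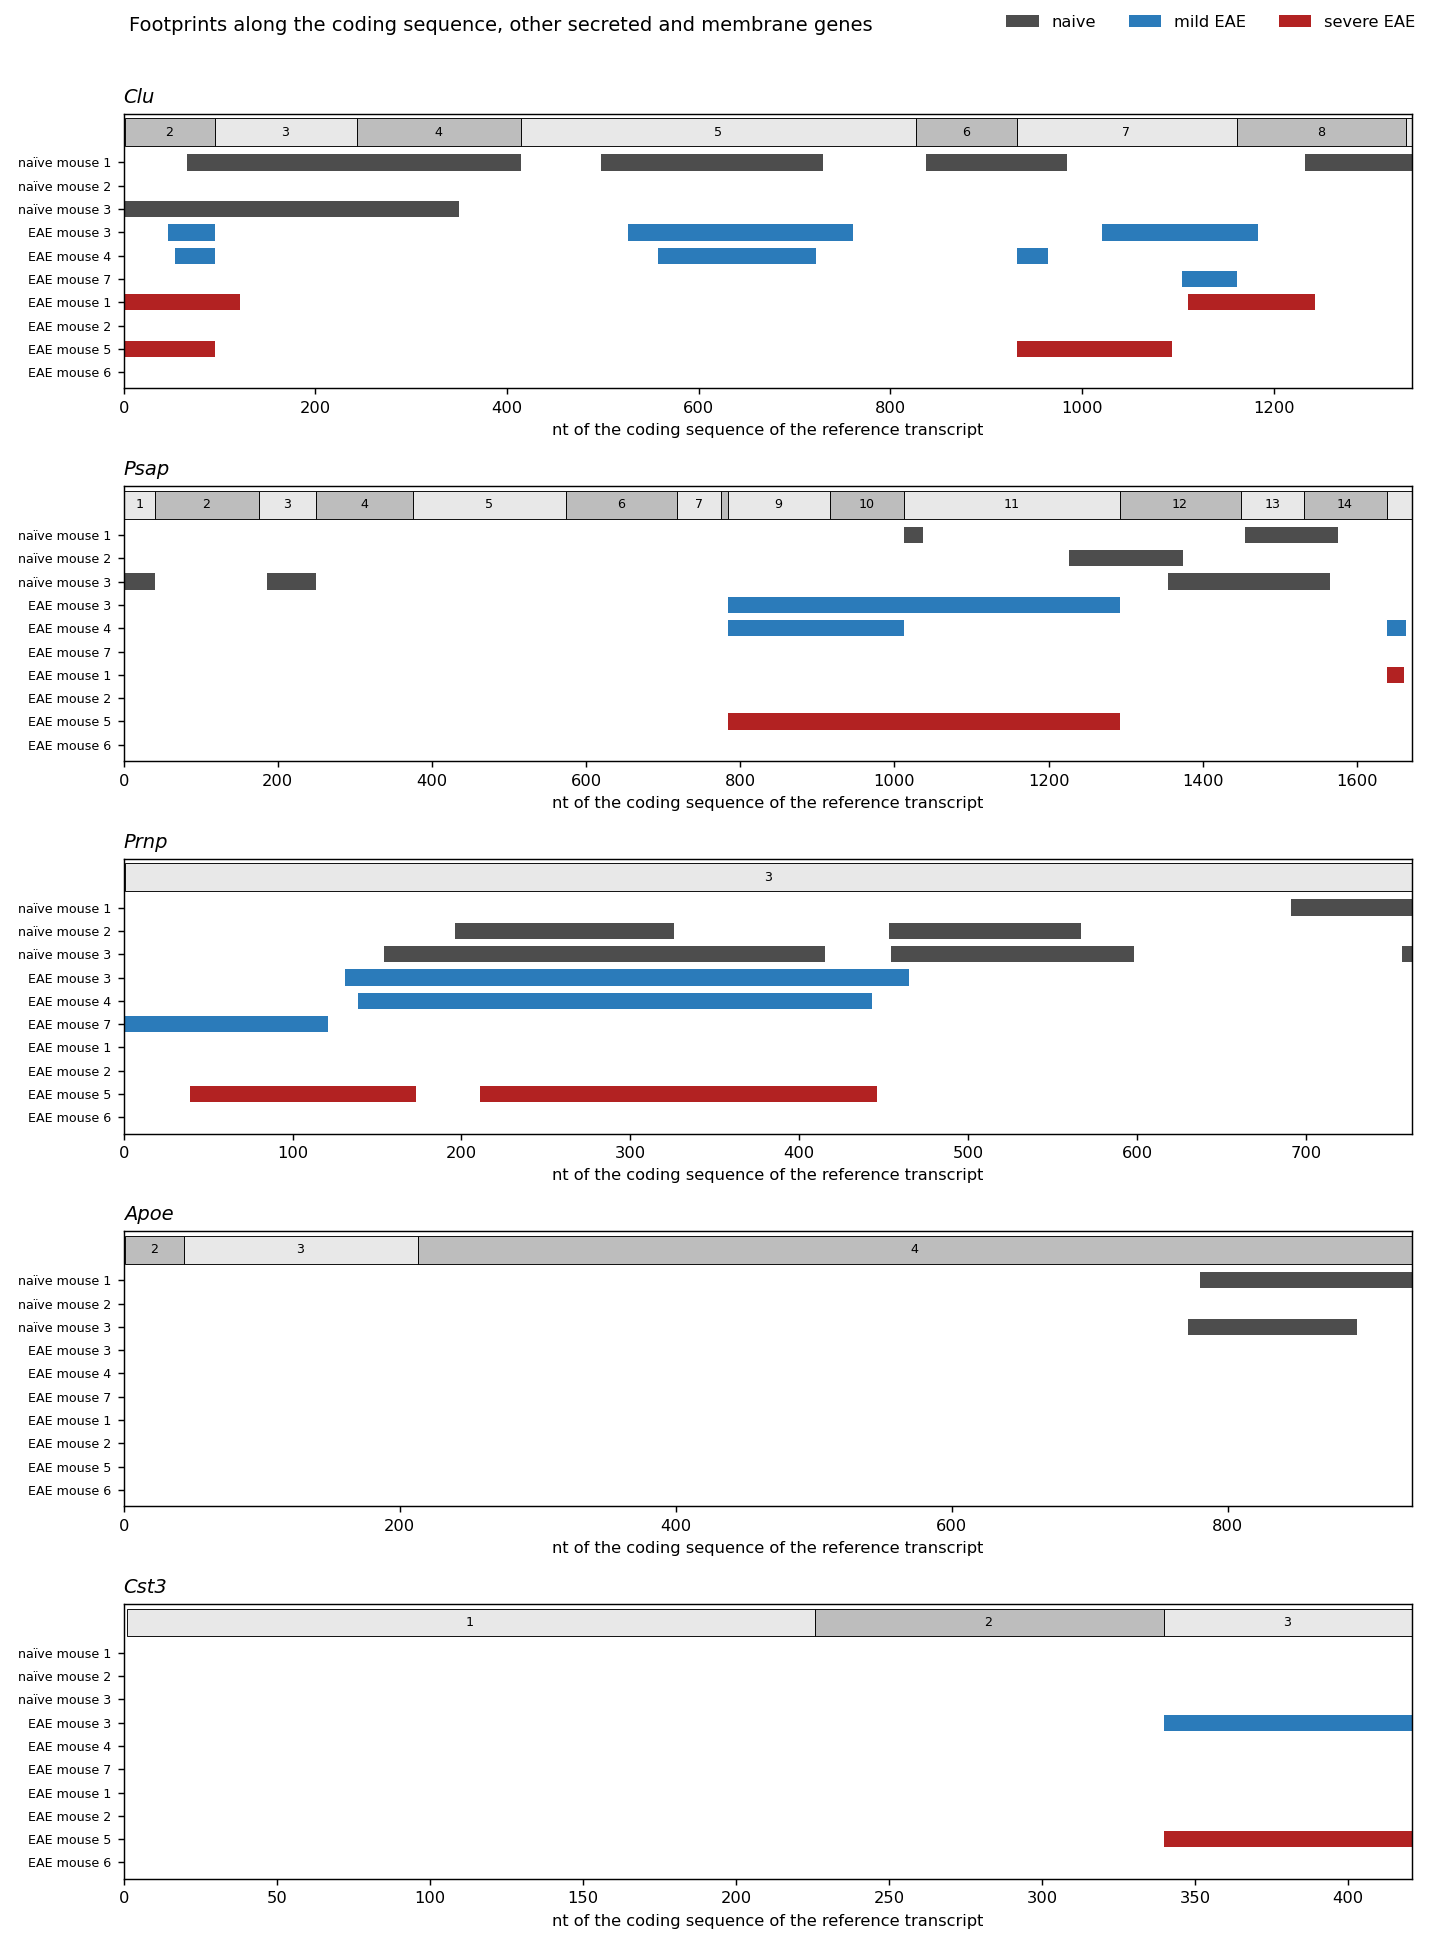
Footprints of each mouse (rows, naïve in grey, mild EAE in blue, severe EAE in red) along the coding sequence of *Clu*, *Psap*, *Prnp*, *Apoe* and *Cst3* (x axis, nt of the coding sequence of the reference transcript), with exons as numbered boxes. In *Psap* exons 9 and 10 are covered in EAE mice 3, 4 and 5 and exons 12 to 14 in naïve mice, and the first 770 coding nt of *Apoe* and 339 of *Cst3* are bare.

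Over the 86 exons of the 8 reference transcripts, 65 had a footprint in at least 1 mouse. Of these, 38 were footprinted in naïve and in EAE mice, 15 in naïve mice and no EAE mouse, and 12 in EAE mice and no naïve mouse, or 58.5%, 23.1% and 18.5%, beside 29.5%, 18.8% and 51.7% of the 40315 exons footprinted in all protein-coding reference transcripts. The sets were not matched for how many mice footprinted each exon. An exon footprinted in a single mouse cannot be in the shared class, so these shares cannot be read as particular to the 8 genes. The test was run over all 18801 exons of protein-coding reference transcripts that were footprinted in at least 2 mice, 54 of them in these genes. At an unadjusted exact p under 0.05, 2 of the 54 exons were lower in EAE (*App* exon 13 and *Aplp1* exon 4) and 0 higher, beside 314 (1.67%) and 4 (0.0213%) of all exons tested. Between severe and mild EAE 3 were lower in severe EAE (*Aplp1* exon 5, *Aplp2* exon 16 and *Psap* exon 15) and 0 higher, beside 345 (1.84%) and 0 (0%) of all exons. After adjustment 0 exons passed by this test. The exons had a median EAE minus naïve difference of -4.02 nt in the 8 genes and -1.05 nt over all exons tested, sets that were not matched for covered nt.

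The footprints of these genes lay mostly in coding sequence. By midpoint, 207 of the 254 were coding, 25 in a 3′ UTR, 5 in a 5′ UTR and 17 in an intron, and 15 of the intronic ones were in *App*. Their lengths ran from 13 to 436 nt with a median of 112.5 nt. A start or an end often fell on an annotated exon edge, in 126 and 133 footprints, and both did so in 60. The intronic share of covered nt was 8.29%, 13.6% and 8.28% in naïve mice 1, 2 and 3, 2.48%, 5.47% and 8.17% in EAE mice 3, 4 and 7 (mild), and 0.360% and 10.7% in EAE mice 1 and 5 (severe). EAE mice 2 and 6 had under 500 covered nt in the 8 genes and were left out of this share. In all 8 mice the share was below that over all other genes of the same mouse, with means of 7.17% ± 4.29 (SD, n = 8) and 33.3% ± 11.6. The naïve mean was 10.1% ± 3.08 (n = 3) and the EAE mean 5.43% ± 4.17 (n = 5), a difference of -4.63 percentage points, which turned to 8.10 points when EAE mice 2 and 6, with 150 and 297 covered nt, were kept. Over all other genes the share was 45.4% ± 7.31 in naïve and 26.0% ± 5.86 in EAE mice.

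**Figure D5:**
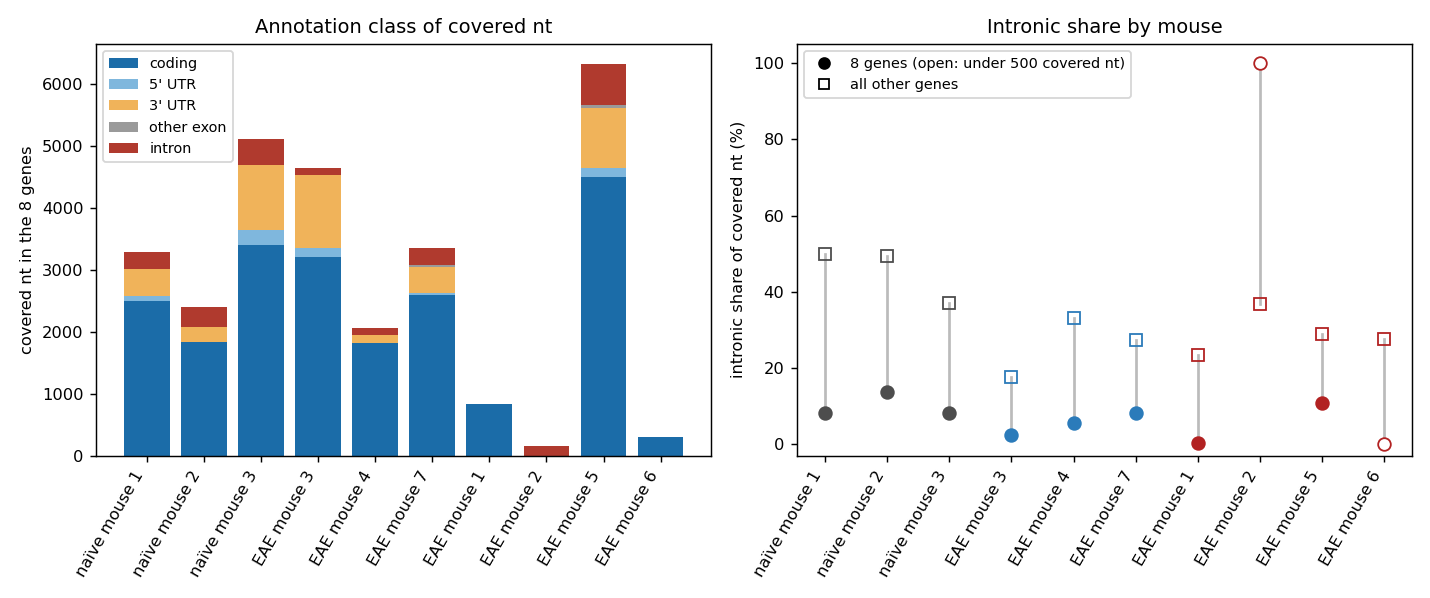
Left, covered nt of the 8 genes in each mouse (y axis) stacked by annotation class, with coding sequence in blue and introns in red. Right, intronic share of covered nt in percent (y axis) of the 8 genes (circles, open for mice with under 500 covered nt) and of all other genes (squares) in each mouse, where every filled circle lies below its square.

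Stretches covered in at least 2 mice of a group, by more than 1 nt of overlap, were taken as the reproducible footprints of that group. There were 29 in naïve mice (2613 nt in 7 genes), 23 in mild EAE mice (2385 nt in 6 genes) and 8 in severe EAE mice (723 nt in 4 genes). Coding midpoints made up 25 of the 29, 20 of the 23 and 8 of the 8. *Aplp2* had 7, 7 and 3 such stretches in naïve, mild and severe EAE mice, *App* 8, 3 and 1, and *Aplp1* 4, 6 and 3. *Clu* had 3, 3 and 1, *Psap* 3, 3 and 0, *Prnp* 3, 1 and 0, *Apoe* 1, 0 and 0, and *Cst3* 0 in each group. Of the naïve stretches 8 overlapped a mild one, 27.6% of the naïve and 34.8% of the mild stretches. Of the severe stretches 4 of 8 overlapped a naïve one (13.8% of the naïve) and 6 of 8 a mild one (26.1% of the mild). The same counts and overlaps over all genes were not computed, so they cannot be read as particular to these genes. The severe count fell to 1 without EAE mouse 5 and to 2 without EAE mouse 1. The naïve count fell to 8 without naïve mouse 3 and to 13 without naïve mouse 1, and the mild count to 9 without EAE mouse 3 and to 13 without EAE mouse 4 or 7. Taking any 2 of the 10 mice gave 67 stretches over 7601 nt, of which 57 had a coding midpoint, 8 a midpoint in a 3′ UTR, 1 in a 5′ UTR and 1 in an intron, and 18 were touched by at least 5 mice.

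UAG was found in 82 of the 254 footprints (32.3%) and AGGU in 56 (22.0%). Of the 112449 footprints of the series that lay in a single gene, 51.2% and 31.2% held them. The sets were not matched for annotation class. The mean intronic share of covered nt was 7.17% in the 8 genes and 33.3% in all other genes, so the shares do not show fewer motifs at like sites. By class, UAG was in 24.2% of the coding, 68% of the 3′ UTR and 82.4% of the intronic footprints of the 8 genes, and AGGU in 20.8%, 28% and 35.3%. By group, UAG was in 32.4% of naïve, 29.2% of mild and 36.5% of severe EAE footprints and AGGU in 16.7%, 22.5% and 30.2%. The median footprint length was 108, 113 and 122 nt in these groups, and EAE mouse 5 gave 45 of the 63 severe footprints. Shares by group over all footprints of the series were not computed. Footprints of 1 mouse or of 1 site are not independent, so these shares carry no test. Within the 8 genes, coding nt under a footprint held 2.76 UAG per 1000 nt and coding nt without one 5.46, and AGGU had 6.27 and 7.94. In UTRs UAG had 12.8 and 13.1 per 1000 nt and in introns 19.7 and 14.3.

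Genes that act on or beside these proteins were read from the same tests, as a list of 46 genes that covered the secretases, APP adaptors, lipoprotein receptors, lysosomal enzymes and prion protein partners. Of the 46, 39 were footprinted and 38 tested, and 3 were lower in EAE at an unadjusted exact p under 0.05, beside the 4.51% of all genes, with 0 higher and 0 in either direction between severe and mild EAE. None passed after adjustment. *Apba1*, a neuronal adaptor that binds the cytoplasmic tail of the amyloid precursor protein, had 583, 1620 and 965 covered nt in naïve mice 1, 2 and 3, 120, 0 and 318 in EAE mice 3, 4 and 7 (mild), and 0, 0, 689 and 0 in EAE mice 1, 2, 5 and 6 (severe) (exact permutation p = 0.0167, adjusted 0.675). Its paralog *Apba2* had 817, 342 and 440 nt in naïve mice and 0, 251, 384, 0, 0, 429 and 0 in EAE mice 3, 4, 7, 1, 2, 5 and 6 (exact p = 0.0333). The 5 genes of the list with the most covered nt were *Lrp1* (39690 nt over the 10 mice), *Ncam1* (11882), *Grm5* (10431), *Abca1* (6000) and *Sorl1* (4947), with exact p of 0.942, 0.667, 0.142, 0.242 and 0.558 between EAE and naïve mice. *Abca1*, which loads lipid onto apolipoprotein E, had 0 in the naïve mice, 931, 409 and 2558 nt in EAE mice 3, 4 and 7 (mild), and 0, 0, 2102 and 0 in EAE mice 1, 2, 5 and 6 (severe). The 14 lysosomal partners of prosaposin and cystatin C together had 283, 802 and 622 nt in the naïve mice, 2411, 979 and 3813 in the mild mice and 521, 233, 4761 and 565 in EAE mice 1, 2, 5 and 6 (severe), with 0 of 11 tested genes called.

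The genes most like each member were named by the Pearson correlation of covered nt over the 10 mice, among 3655 genes footprinted in at least 5 mice. The values describe the same 10 lists, which differ in their number of footprints, and carry no test. Among those named were, for *App*, *Znfx1* (r = 0.98) and *Pitpnm2* (0.98), for *Aplp1* *Kat6a* (0.96) and *Zranb3* (0.95), and for *Aplp2* *Slc6a11* (0.99) and *Spag9* (0.99). For *Clu* they were *Gm49130* (0.93) and *Gm12999* (0.92), and for *Psap* *Nefm* (0.98) and *Gm47283* (0.97). Beside *Prn*, which shares its footprints, *Prnp* was likest to *Igsf5* (0.98). *Apoe* (*1810062O18Rik*, 0.95) and *Cst3* (*Gm20721*, 0.93) were footprinted in 2 and 3 mice, so their likeness rests on those mice.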

How the data were processed

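The authors assembled the trimmed reads of each immunoprecipitation into contigs, aligned these to GRCm38 with minimap2 (version 2.17 in the submitters' processing notes, which also name bcl2fastq 2.19.0.316, fastp and bedtools), and removed sites also seen in that mouse's input or in pooled IgG data. The deposited lists hold genome positions (chromosome, start and end) without score, strand or read count. Of the 136207 footprints, 135639 lay on GRCm38 chromosomes and 0 passed a chromosome end. Merged without strand, footprints in overlapping genes on opposite strands cannot be separated.

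Covered nt per gene, exon and mouse were computed against GENCODE release M 21 (GRCm38 patch 6), and each mouse was 1 replicate. The grouping of EAE mice by score follows the study. Each group was compared by exact permutation over all splits, for genes or exons footprinted in at least 2 mice, and the procedure was tested on simulated data. The genes named are the 8 members, and of the 46 related genes the 5 with the most covered nt and those with an unadjusted p under 0.05. Results for some genes that these rules name are not reported here. The members, gene lists and tests were chosen with earlier results of these data known, and the exon tests and the comparison without EAE mice 2 and 6 were added later. Alternatives were scaling by covered nt or mapped reads, log2, limits on footprint length, merging within 50 nt, wider gene spans, other gene minimums, shared-stretch rules, leaving out each mouse, and a replicate block. Python 3.11.15, numpy 2.4.6, scipy 1.17.1, pysam 0.24.0, biopython 1.88, samtools 1.23.1 and matplotlib 3.10.9 were used.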

Additional observations from a re-analysis of the deposited data

Results flagged for a closer look

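Severe EAE mouse 5 stood apart from the other 3 severe EAE mice. The gap from the highest or lowest of these 4 mice to its nearest neighbour was taken as a share of the group's whole range. It was set against Dixon's critical value, and 5 of the 8 values examined exceeded it. Chance exceeds that critical value in about 1 in 20 groups of normally distributed values. With several covered nt at 0 that rate does not hold here, so the 5 values are a description. The gap was 0.978 of the range for *App*, 0.957 for *Psap* and 1 for both *Prnp* and *Cst3*. In *Prnp* and *Cst3* the other severe mice were at 0, which fixes the gap at 1 whatever the value of EAE mouse 5. For the covered nt of all 8 genes it was 0.889. The 5 values come from the same mice and are not independent. The study itself describes EAE mouse 5 as an outlier of the severe group that had been in remission shortly before the experiment ended. EAE mouse 5 also had the most footprints of any mouse (31870), and EAE mice 1, 2 and 6 had 2670, 209 and 673. The part of the number of footprints in these values was not tested.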

How the results depend on the processing

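Per 1000000 covered nt, the EAE minus naïve difference over the 8 genes turned from -1082 to 1196 nt and the severe minus mild difference from -1452 to 1560.4 nt, and the genes with an exact p under 0.05 between severe and mild EAE numbered 415 in place of 124. That count was 80 on the log2 scale, 79 for genes in at least 5 mice and 0 without EAE mice 2 and 6, where 2 against 3 mice allow no p below 0.1. Without those mice the EAE against naïve count was 207 in place of 416, the total difference was -161 nt between EAE and naïve and turned to 228 nt between severe and mild EAE, and that of *App* between severe and mild turned from -67.3 to 606 nt. Per 1000000 mapped unique reads both total differences kept their sign (-521 and -327). With any covered nt allowed, the intronic difference was 8.10 points in place of -4.63, and stretches shared by at least 3 severe mice numbered 1 in place of 8. Leaving out each mouse in turn gave 323 to 762 genes for EAE against naïve (762 without severe EAE mouse 5), and 0 to 0 for severe against mild, where 6 mice allow no p under 0.05. The totals ran from -1717 to -325 nt and from -2929 to -807 nt, and the intronic difference from -5.94 to -2.85 points. Shared stretches ran from 8 to 20 in naïve, 9 to 13 in mild and 1 to 8 in severe EAE mice. With a replicate block of naïve and EAE mice 1, 2 and 3, whose deviations correlated at -0.610, 0.646 and 0.290, 0 genes were called, since 3 pairs allow no p below 0.25, and the total difference was -1731 nt. Of 248 values for single members under the alternatives, 216 were on the same side and in the same direction, 30 changed sign without passing and 2 passed, *Apoe* without naïve mouse 2, where the mice that are left allow no other p, and *Prnp* per 1000000 covered nt between severe and mild EAE (-172, exact p = 0.0286). The causes were not tested. The lists hold no read counts, so the depth behind a footprint and the limit of detection in EAE mice 2 and 6 are unknown.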
